A study of Homo sapiens with 4 samples.

Results

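The CCR4-NOT complex is the main deadenylase of animal cells: it shortens the poly(A) tail of cytoplasmic mRNAs, which lowers their translation and starts their decay. Its subunits are held together by the scaffold CNOT1, and its enzymes come as paralogs, CNOT7 or CNOT8 as the Caf1-type nuclease and CNOT6 or CNOT6L as the Ccr4-type nuclease. Argonaute and TNRC6 proteins bring the complex to the targets of microRNAs, so it acts downstream of the pathway that DROSHA starts. The 10 listed genes were CNOT1, CNOT2, CNOT3, CNOT4, CNOT6, CNOT6L, CNOT7, CNOT8, CNOT9 and CNOT10. Members were taken as the probe sets to which the platform annotation gives one of these symbols, and each measured member had 1 such probe set. This gave 8 of the 10 genes, out of 18603 probe sets and 15870 named genes in all; CNOT1 and CNOT6 had no named probe set and were not analysed here.

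The study measured total RNA of MDA-MB-231 cells, an established triple-negative human breast carcinoma line of mesenchymal character, on 4 Affymetrix arrays. Transfection with shDROSHA, a short hairpin RNA against the nuclease that cuts primary microRNA transcripts, was compared with shNC, with 2 biological replicates of each. Both groups were otherwise untreated cells of this one line; the sources used here do not give how many hairpins or clones were used. The control samples are labelled shNC, whereas the design text describes mock transfection. The values are log2 signals after RMA (background correction, quantile normalization and summary by probe set), so a difference of 1 is a 2-fold change, and signals of different probe sets cannot be ranked as amounts of mRNA.

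DROSHA signal was 8.71 and 8.74 in the shDROSHA arrays, against 9.66 and 9.76 in the shNC arrays, a 1.98-fold reduction. Array medians over all probe sets lay between 7.21 and 7.25. Of 5 measured markers of this line, VIM averaged 11.83 in shDROSHA and 11.86 in shNC, and 1 of the 5 rose: AXL, a receptor tyrosine kinase, averaged 11.00 in shDROSHA and 10.67 in shNC (log2 fold change 0.33, limma adjusted p = 0.00442). FN1 averaged 8.38 in shDROSHA and 8.07 in shNC without passing (log2 fold change 0.31, limma adjusted p = 0.122). The part of these marker differences in the results below was not tested. The epithelial adhesion marker EPCAM averaged 6.75 in shDROSHA and 6.84 in shNC. The estrogen receptor ESR1 averaged 6.21 in shDROSHA and 6.09 in shNC. GATA3 and FOXA1 averaged 7.10 and 6.96 in shDROSHA, and 7.05 and 7.12 in shNC. Of the 6 measured luminal epithelial markers, KRT8 and KRT18 included, 0 passed. The 6 measured immune and endothelial markers averaged 4.54 to 6.92 in shDROSHA and 4.28 to 7.03 in shNC, and 0 of them passed. The simple epithelial keratins KRT8 and KRT18 were bright in both groups and averaged 11.57 and 11.08 in shDROSHA, and 11.43 and 10.92 in shNC.

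Of the measured subunits, 1 of 8 rose in shDROSHA cells, 0 fell and 7 did not pass the test. CNOT7 was the one that rose, by a log2 fold change of 0.30. In RNA from whole cultures, a change in every cell and a change in the share of cells with high levels cannot be told apart. CNOT9 and CNOT2 were higher by 0.19 and 0.12, and the log2 fold change of CNOT8 was -0.18, but none of these passed. The test was limma with its prior variance tied to signal level (the trended fit), adjusted by Benjamini-Hochberg over all probe sets at a threshold of 0.05. It called 6.41% of all probe sets, 3.12% as higher and 3.28% as lower, and 10.8% of those in the signal range of the members (7.51 to 10.69), so 1 of 8 is close to the background. With single arrays left out, the members that passed were not the same each time. The log2 fold change then ranged from 0.23 to 0.38 for CNOT7, from 0.14 to 0.25 for CNOT9 and from -0.25 to -0.11 for CNOT8. Limma with 1 prior variance common to every probe set (the constant fit) called 0 of the members and 0.00538% of all probe sets. Of the members, 1 had an unadjusted p under 0.05 in that fit, as did 2774 of all 18603 probe sets. DROSHA itself had a limma adjusted p of 3.89e-06 in the trended fit and 0.0843 in the constant fit.

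**Figure D1:**
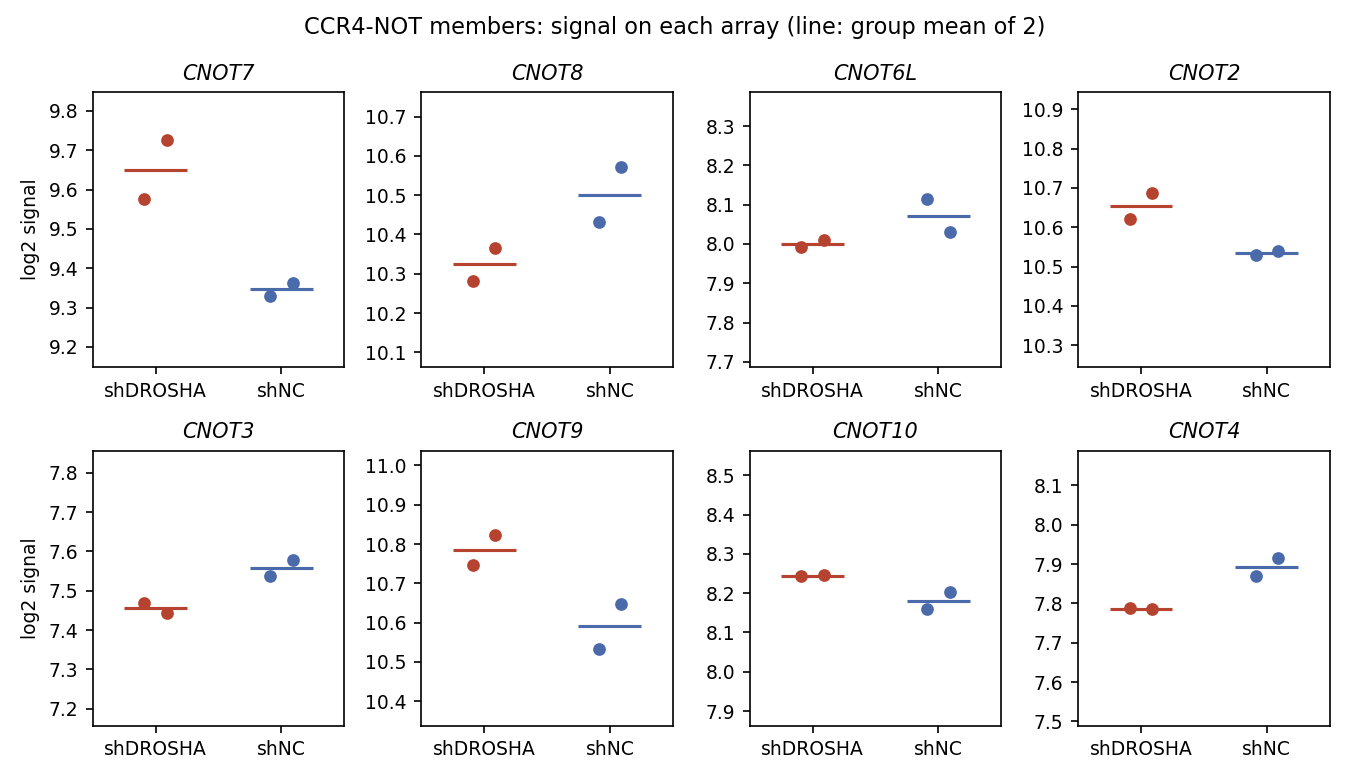
Log2 signal of each measured CCR4-NOT subunit on the 4 arrays, with points for arrays, lines for the means of 2, and the same span on every axis. CNOT7, CNOT2, CNOT9 and CNOT10 lie higher in shDROSHA, the other 4 lie lower, and in no panel do the groups overlap.

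CNOT7 is a Caf1-type deadenylase, the exonuclease that removes poly(A) tails within the complex, and it carried the largest difference among the subunits. Its log2 signal was 9.58 and 9.73 in the shDROSHA arrays, against 9.33 and 9.36 in the shNC arrays. Both knockdown arrays lay above both controls, and the knockdown arrays were 0.15 apart where the controls were 0.03 apart. The means were 9.65 ± 0.106 in shDROSHA and 9.35 ± 0.023 in shNC (log2 mean ± SD, n = 2 each), a 1.24-fold increase. The log2 fold change had an SE of 0.072 and a 95% interval of 0.15 to 0.46, with a limma adjusted p of 0.0208 in the trended fit and 0.268 in the constant fit. Without shDROSHA replicate 2 it was 0.23 (limma adjusted p = 0.103), without shNC replicate 1 it was 0.29 (limma adjusted p = 0.119), and without shNC replicate 2 it was 0.32 (limma adjusted p = 0.059), so the call was lost in each case while the direction stayed.

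CNOT8, the Caf1-type paralog that can take the place of CNOT7 in the complex, differed in the opposite direction. Its signal was 10.28 and 10.37 in the shDROSHA arrays, against 10.43 and 10.57 in the shNC arrays. The groups did not overlap, but the gap of 0.06 between the nearest arrays of the groups was smaller than the distance between the shNC arrays, 0.14. The log2 fold change was -0.18 (SE 0.062, 95% interval -0.31 to -0.05, limma adjusted p = 0.113), which is 1.13-fold lower. CNOT8 passed the threshold when the values were quantile-normalized again (-0.21, limma adjusted p = 0.0439) and without shDROSHA replicate 2 (-0.22, limma adjusted p = 0.0327).

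Set against each other within an array, the Caf1 paralogs differed unequally between the groups. Relative to the shNC mean, the signal of CNOT7 minus that of CNOT8 was 0.45 and 0.51 in the shDROSHA arrays, against 0.05 and -0.05 in the shNC arrays. The shift of 0.48 compares with SDs of 0.045 in shDROSHA and 0.077 in shNC. It is given as a description, since the pair was picked with its values known, and a single value of 2 arrays against 2 cannot reach a two-sided exact permutation p below 0.333.

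CNOT6L, a Ccr4-type deadenylase of the exonuclease-endonuclease-phosphatase family, differed least among the measured enzymes. Its signal was 7.99 and 8.01 in the shDROSHA arrays, against 8.11 and 8.03 in the shNC arrays. The nearest arrays of the groups were 0.02 apart, and the log2 fold change of -0.07 (SE 0.097) had a 95% interval of -0.28 to 0.14 (limma adjusted p = 0.771). The groups overlapped once the arrays were centred on their medians or quantile-normalized again.

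**Figure D2:**
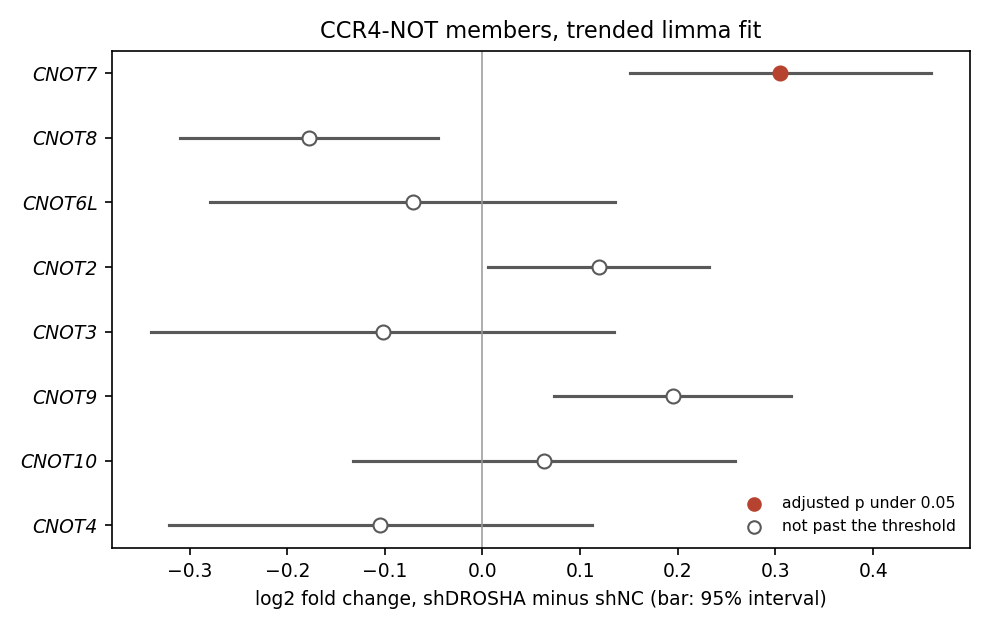
Log2 fold change (shDROSHA minus shNC) of the measured subunits in the trended limma fit, with bars for unadjusted 95% intervals. CNOT7 at 0.30 is the filled point past the threshold, and the intervals of CNOT8, CNOT2 and CNOT9 also leave out 0 before adjustment. Among all 18603 probe sets, 3599 had an unadjusted p under 0.05 in this limma fit.

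CNOT2 and CNOT3 form the NOT module, which docks on the C-terminal part of CNOT1 and meets RNA-binding adaptors. CNOT2 had signals of 10.62 and 10.69 in the shDROSHA arrays, against 10.53 and 10.54 in the shNC arrays, so both knockdown arrays were higher. Its log2 fold change was 0.12 (SE 0.053, 95% interval 0.01 to 0.23, limma adjusted p = 0.229). CNOT3 had signals of 7.47 and 7.44 in the shDROSHA arrays, against 7.54 and 7.58 in the shNC arrays. Both knockdown arrays were lower there, with a log2 fold change of -0.10 (SE 0.11) and a wider interval of -0.34 to 0.13 (limma adjusted p = 0.697). CNOT2 and CNOT3 thus lay on opposite sides of 0 without either passing.

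CNOT9, formerly RQCD1, is the armadillo-repeat subunit that binds tryptophan-containing peptides of TNRC6 proteins and other adaptors. Its signal was 10.75 and 10.82 in the shDROSHA arrays, against 10.53 and 10.65 in the shNC arrays. Both knockdown arrays lay above both controls, and the gap of 0.10 between the nearest arrays was close to the distance between the controls, 0.11. The log2 fold change was 0.19 (SE 0.056, 95% interval 0.07 to 0.32), 1.14-fold higher, with a limma adjusted p of 0.0572 in the trended fit and 0.393 in the constant fit. This is the member nearest to the threshold among those that missed it, and 6 of the 13 alternative settings placed it inside. The settings share the same arrays, so their tally is not independent support. With arrays centred on their medians CNOT9 was 0.23 (limma adjusted p = 0.035), and with replicate numbers as blocks it was 0.19 (limma adjusted p = 0.0249). Without shDROSHA replicate 1 it was 0.23 (limma adjusted p = 0.00935), and without shNC replicate 1 it was 0.14 (limma adjusted p = 0.409).

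CNOT10 belongs to a module that sits at the N-terminal part of CNOT1 together with CNOT11. CNOT10 had signals of 8.24 and 8.25 in the shDROSHA arrays, against 8.16 and 8.20 in the shNC arrays. It was higher by 0.06 (SE 0.091, 95% interval -0.13 to 0.26, limma adjusted p = 0.785), the smallest difference of all measured subunits. CNOT11, which is outside the listed members, had signals of 8.00 and 7.96 in the shDROSHA arrays, against 8.00 and 8.04 in the shNC arrays, a log2 fold change of -0.04 (SE 0.097, limma adjusted p = 0.88).

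CNOT4 is a RING-type ubiquitin ligase that associates only loosely with the human complex. Its signal was 7.79 and 7.79 in the shDROSHA arrays, against 7.87 and 7.91 in the shNC arrays. The knockdown arrays were lower and almost equal, and the log2 fold change of -0.10 (SE 0.101, 95% interval -0.32 to 0.11) did not pass (limma adjusted p = 0.649).

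Across the subunits there was no common direction: 4 were higher and 4 lower. Their median log2 fold change was -0.004, against 0.001 for all probe sets, and their median absolute log2 fold change was 0.11, against 0.12 for all probe sets. Arrays of the groups did not overlap at any of the 8, compared with 47.8% of all probe sets (23.4% higher and 24.4% lower) and 57.3% of those in the members' signal range. With the arrays centred on their medians, or quantile-normalized again, this held for 7 of 8, CNOT6L being the exception, against 48.6% and 48.1% of all probe sets. The SD between the 2 arrays of a group was 0.00056 to 0.106 over the subunits. RefSeq lists pseudogenes of 3 members, CNOT4P1, CNOT6LP1 and CNOT7P1, and whether the probes tell these copies apart was not tested.

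**Figure D3:**
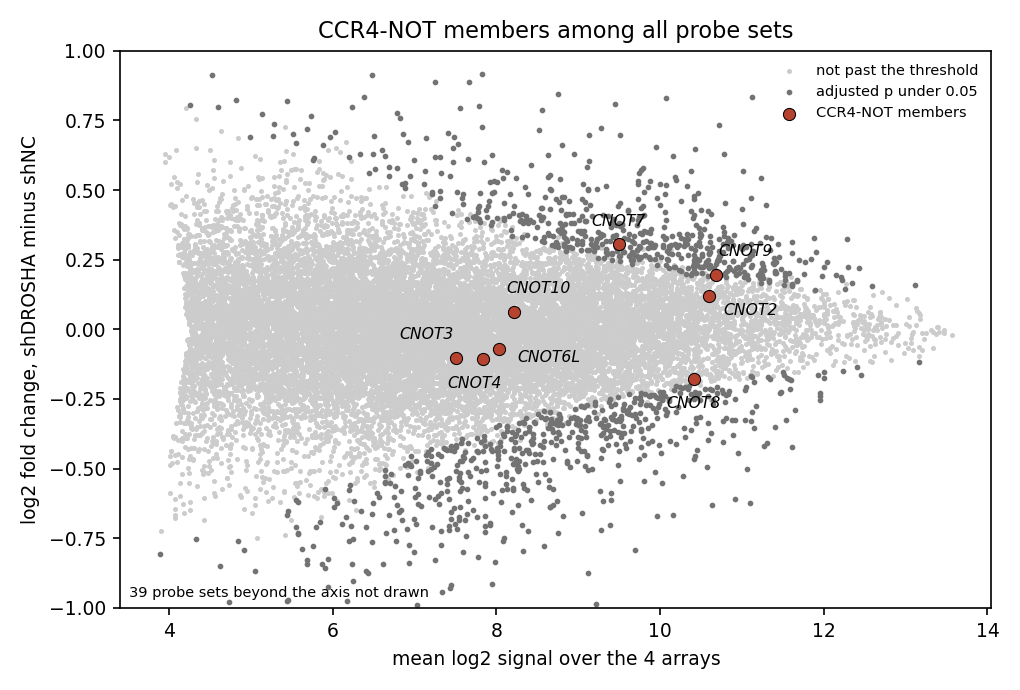
Log2 fold change (shDROSHA minus shNC) against mean log2 signal for all probe sets, with the subunits marked; 39 probe sets beyond 1 log2 unit are not drawn. CNOT7 lies within the upper band of called probe sets, CNOT9 and CNOT8 lie at the inner edges of the upper and lower bands, and the dimmer subunits lie in the bulk.

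The promoters of the members were looked at as a feature that the choice of members did not use. RefSeq windows of 300 bases, 250 before and 50 after the annotated start (GRCh38.p14), were found for 8 of the 10 listed genes, CNOT1 and CNOT7 having none in the table used. Taking the first listed window of each gene, 6 of 8 held GGGCGG on either strand, against 58.5% of windows of protein-coding genes. CCAAT on either strand was in 4 of 8, against 36.4%, TATAAA on either strand was in 0 of 8, against 9.63%, and CCGGAAG on either strand was in 1 of 8, against 14.2%. GC content ranged from 35.3% at CNOT10 to 72.0% at CNOT2 and CNOT6, around a median of 62.7% over all windows. The windows of CNOT9 and CNOT8 are shown because these subunits were the nearest to the threshold in the upward and downward direction; capitals mark GGGCGG and CCGGAAG on either strand. The CNOT9 window is chr2:218568589-218568888 on the plus strand, and that of CNOT8, the first of 3 listed, is chr5:154857999-154858298 on the plus strand.
CNOT9: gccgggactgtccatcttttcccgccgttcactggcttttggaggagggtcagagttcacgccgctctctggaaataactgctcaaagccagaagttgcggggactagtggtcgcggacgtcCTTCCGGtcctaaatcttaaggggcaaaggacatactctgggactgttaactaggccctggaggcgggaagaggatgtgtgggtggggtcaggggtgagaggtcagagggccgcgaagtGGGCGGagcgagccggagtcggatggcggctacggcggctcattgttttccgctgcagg
CNOT8: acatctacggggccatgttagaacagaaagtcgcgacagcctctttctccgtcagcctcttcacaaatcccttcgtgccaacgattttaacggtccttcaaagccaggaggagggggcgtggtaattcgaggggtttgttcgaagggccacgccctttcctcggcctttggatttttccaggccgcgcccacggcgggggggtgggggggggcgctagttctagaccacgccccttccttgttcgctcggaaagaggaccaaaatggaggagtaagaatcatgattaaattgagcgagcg
The CNOT9 window holds 1 match to each motif, and the CNOT8 window holds neither. The other 2 windows listed for CNOT8 both hold GGGCGG, so the difference in GGGCGG depends on the start that is taken, whereas none of the 3 CNOT8 windows holds CCGGAAG on either strand.

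Other genes of mRNA decay were taken as 6 lists of 96 genes, of which 84 were measured, each by its brightest probe set. Of these, 5 rose and 4 fell in the trended fit, 10.7% in all, against 6.41% of all probe sets. The share was 10.8% of probe sets in the signal range of the CCR4-NOT members. That range is not matched to these genes, some of which are dimmer or brighter. Over 5 equal bins of signal, the called share ran from 0.833% in the dimmest to 15.6% in the brightest. Among all probe sets, 3.12% were called higher and 3.28% lower. With arrays centred on their medians, 8 rose and 3 fell, while 747 rose and 448 fell among all 18603 probe sets. In the constant fit 0 were called. There 14 had an unadjusted p under 0.05 in limma, as did 2774 of all 18603 probe sets. Leaving out shNC replicate 1 made the trended count 2, leaving out shNC replicate 2 made it 5, and ZFP36L1 alone among the 9 passed with each of the 4 arrays left out. Their median log2 fold change was 0.02.

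Recruiters that bring the complex to chosen mRNAs held 3 of the 4 genes that fell. Of 22 measured, 3 fell and 0 rose, against 3.28% of all probe sets called lower, and 19 did not pass. Whether or not they passed, 9 of the 22 were higher, and the median was -0.02. ZFP36L1, which binds AU-rich elements and recruits CCR4-NOT to them, had signals of 8.90 and 8.83 in the shDROSHA arrays, against 9.47 and 9.28 in the shNC arrays. Both knockdown arrays were lower by more than the spread of either group, and ZFP36L1 fell by 0.51 on the log2 scale (SE 0.081, limma adjusted p = 0.00212). RC3H2, also called roquin-2, which binds stem-loops in immune-related mRNAs, had 10.08 and 10.09 in the shDROSHA arrays, against 10.38 and 10.34 in the shNC arrays. It fell by 0.28 (SE 0.056, limma adjusted p = 0.00859). SAMD4A, a homolog of the fly translational repressor Smaug, had 7.92 and 7.98 in the shDROSHA arrays, against 8.32 and 8.28 in the shNC arrays, and fell by 0.35 (SE 0.094, limma adjusted p = 0.0414). The TNRC6 proteins, which link Argonaute to the complex, did not pass: the log2 fold changes were 0.05 for TNRC6A (SE 0.079), -0.15 for TNRC6B (SE 0.092) and -0.02 for TNRC6C (SE 0.119).

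Of 7 measured deadenylases outside the complex, 1 rose, 0 fell and 6 did not pass, against 3.12% of all probe sets called higher. TOE1, a nuclear deadenylase that trims the 3′ ends of small nuclear RNAs, had signals of 9.52 and 9.45 in the shDROSHA arrays, against 9.24 and 9.17 in the shNC arrays. Both knockdown arrays were higher, and TOE1 rose by 0.28 (SE 0.071, limma adjusted p = 0.0327). PARN, the poly(A)-specific ribonuclease, and PAN3, the adaptor of the PAN2 deadenylase, had log2 fold changes of 0.01 (SE 0.073) and -0.17 (SE 0.113) without passing. These were named after their values were seen.

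Decapping and decay from the 5′ end is the step that follows deadenylation. Of 18 measured genes, 2 rose and 0 fell, against 3.12% of all probe sets called higher, and the median was 0.06. In the signal bins that hold DCP2 and LSM6, 8.92% and 15.6% of probe sets were called in either direction. DCP2, the decapping enzyme, had signals of 8.46 and 8.67 in the shDROSHA arrays, against 8.19 and 8.13 in the shNC arrays. It rose by 0.40 (SE 0.097, limma adjusted p = 0.0227), and its knockdown arrays were 0.21 apart, the widest pair among the called genes of the lists. LSM6, a subunit of the LSM ring that binds shortened tails, had 9.71 and 9.83 in the shDROSHA arrays, against 9.44 and 9.45 in the shNC arrays, and rose by 0.32 (SE 0.068, limma adjusted p = 0.0107).

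The exosome and its cofactors, which degrade RNA from the 3′ end, also held 2 that rose and 0 that fell, of 16 measured, against 3.12% of all probe sets called higher. Of the 16, 15 were higher whether or not they passed, as were 50.2% of all probe sets, and the median was 0.09. EXOSC8, a subunit of the exosome ring, had signals of 9.94 and 9.83 in the shDROSHA arrays, against 9.60 and 9.58 in the shNC arrays, and rose by 0.29 (SE 0.065, limma adjusted p = 0.0163). DIS3L, the cytoplasmic exosome nuclease, had 9.01 and 8.94 in the shDROSHA arrays, against 8.58 and 8.75 in the shNC arrays, and rose by 0.31 (SE 0.085, limma adjusted p = 0.0468). In both, the knockdown arrays lay above the controls. Both calls were lost without shNC replicate 1 (limma adjusted p = 0.0642 for EXOSC8 and 0.368 for DIS3L), that of EXOSC8 also without shNC replicate 2 (0.0787) and that of DIS3L also without shDROSHA replicate 1 (0.0679).

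Among 15 poly(A)-binding proteins, their partners and poly(A) polymerases, 0 rose and 1 fell. Of all probe sets 3.28% were called lower, and the median of these 15 was -0.10. PAIP2, which binds poly(A)-binding protein and represses translation, had signals of 11.40 and 11.34 in the shDROSHA arrays, against 11.54 and 11.65 in the shNC arrays. It fell by 0.23 (SE 0.048, limma adjusted p = 0.012). Of the 6 measured partners of the complex outside the members, 0 rose and 0 fell, with a median of 0.0003. The smallest unadjusted p belonged to BTG3 and TOB2, antiproliferative proteins of the family that binds Caf1 nucleases, which were higher by 0.17 (SE 0.088, limma adjusted p = 0.308) and 0.15 (SE 0.096, limma adjusted p = 0.453) without passing.

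**Figure D4:**
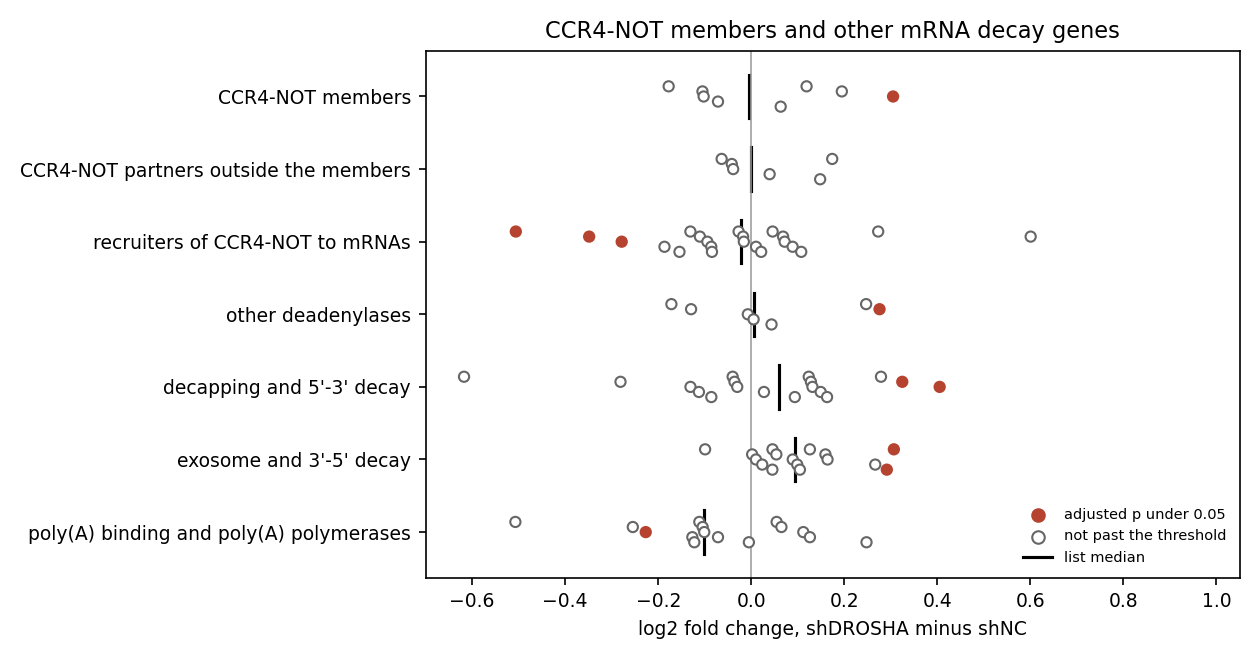
Log2 fold change (shDROSHA minus shNC) of every measured gene of the CCR4-NOT members and of the 6 mRNA decay lists, with filled points for adjusted p under 0.05 in the trended limma fit and a bar for each list's median. Filled points lie to the left only among recruiters and poly(A) factors, and to the right among the members, deadenylases, decapping and exosome genes.

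The direction of every subunit stayed the same when single arrays were left out, while sizes moved. CNOT7 ranged from 0.23 to 0.38, CNOT9 from 0.14 to 0.25 and CNOT8 from -0.25 to -0.11. CNOT6L moved most relative to its size, from -0.11 without shNC replicate 2 to -0.03 without shNC replicate 1. For CNOT8 these controls acted the other way, with a change of -0.11 once shNC replicate 2 was left out and of -0.25 once shNC replicate 1 was.

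**Figure D5:**
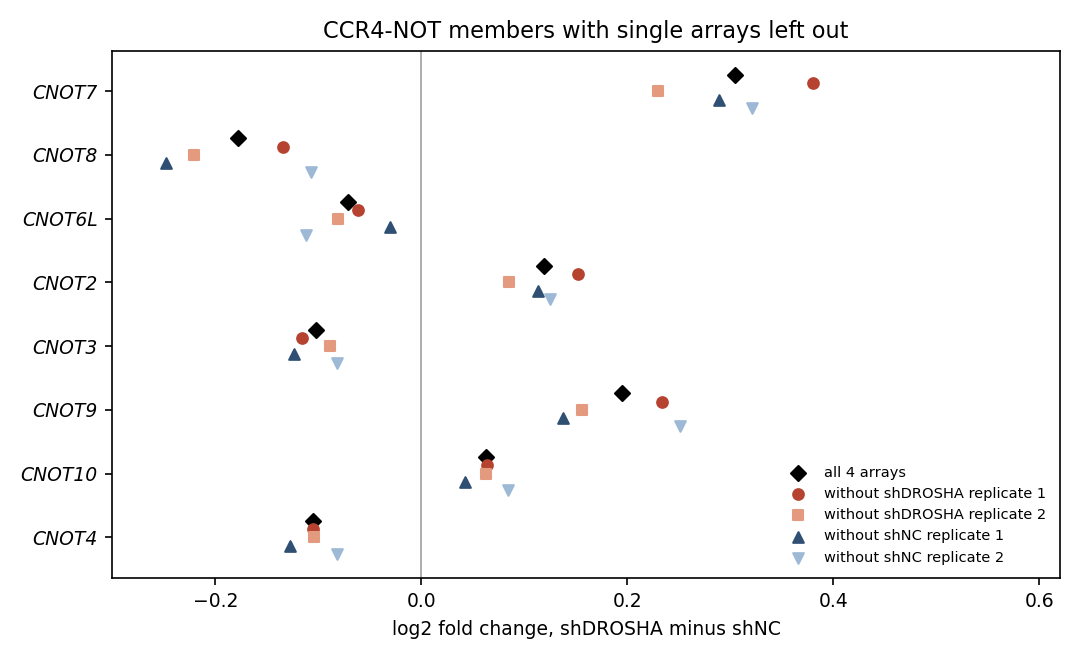
Log2 fold change (shDROSHA minus shNC) of the subunits with all 4 arrays and with each array left out. No point crosses 0, and CNOT7 spans 0.23 to 0.38.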

How the data were processed

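Total RNA of 4 MDA-MB-231 cultures was measured on Affymetrix arrays, 2 labelled shDROSHA and 2 labelled shNC in the sample titles. The authors deposited log2 signals by probe set, made with RMA, per the submitters' processing notes; the sources used here give neither its version nor any filter. RMA would hide a shift common to most transcripts, and dim probe sets can reflect background. The number of arrays limits the precision.

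Symbols came from the platform annotation, matched by Entrez identifier to RefSeq (GRCh38.p14). All 18603 probe sets were fitted in R 4.3.3 with limma 3.58.1 (lmFit, then eBayes with a trend), shDROSHA minus shNC, and p-values were adjusted by Benjamini-Hochberg over all of them. The trend was used because the residual SD depended on brightness, with medians over 5 equal bins of signal of 0.171 (dimmest) to 0.051 (brightest), with 11.9 prior degrees of freedom against 3 in the constant fit and 2 residual ones. All adjusted p-values are limma's. They rest on the spread between these arrays, taken over other probe sets as well as within each one. In the trended fit the 11.9 prior degrees of freedom outweigh the 2 residual ones. An SE there mostly reflects probe sets of like signal. The fits were tested on simulated data in which the spread depended on signal level alone. That test cannot show how often calls in these arrays are false.

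The members, lists, tests and the choice of the trended fit were made with earlier results of these data known. Genes named were DROSHA, all measured members and, of each decay list, up to 4 past the threshold or else the 2 with the smallest p; CNOT11, the TNRC6 genes, PARN, PAN3, the markers and the genes of the closing section were named outside this rule, after their values were seen. Alternatives were the constant fit, a robust prior, filters on dim probe sets, further normalization, the replicate block, 1 value per gene, a threshold of 0.1 and leaving out each array. Whether overlap counts hold under further normalization was added after seeing the data.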

Additional observations from a re-analysis of the deposited data

How the results depend on the processing

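The subunit count of 1 became 0 with the constant prior variance (limma gave 1 at unadjusted p under 0.05) and 2 without probe sets below the lower quartile, without those below the median, with arrays centred on their medians, with quantile normalization again, with the replicate block and at adjusted p 0.10; without single arrays it was 0 to 2. In each of these cases with 2, CNOT7 was joined by CNOT9, except with quantile normalization again, when CNOT8 joined it. CNOT7 was 0.30 with the constant prior variance and passed in 9 of 13 settings, with adjusted p from 0.000492 to 0.268 in limma. CNOT9 passed at 0.19 without probe sets below the lower quartile or the median and with the replicate block, and at 0.23 with centred arrays; CNOT8 passed at -0.21 with quantile normalization again. The median of the subunits, -0.004, was 0.029 with centred arrays and 0.019 with quantile normalization again.

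Without single arrays the median ranged from -0.0092 to 0.0058, CNOT7 from 0.23 to 0.38, CNOT8 from -0.25 to -0.11, CNOT6L from -0.11 to -0.03, CNOT2 from 0.09 to 0.15, CNOT3 from -0.12 to -0.08, CNOT9 from 0.14 to 0.25, CNOT10 from 0.04 to 0.08 and CNOT4 from -0.13 to -0.08. The decay gene count of 9 was 0 with the constant prior variance (14 at unadjusted p under 0.05 in limma) and 2 to 10 without single arrays. The count over all probe sets, 1192, was 1 with the constant prior variance, 1824 at adjusted p 0.10 and 535 to 1949 without single arrays: shNC replicate 1 left out gave 535, shNC replicate 2 left out gave 748, and shDROSHA replicate 1 left out gave 1949. With the constant prior variance, 2774 of all 18603 probe sets had an unadjusted p under 0.05 in limma. Where 1 array of a group remained, its spread was taken from the other group. The looser threshold acts by construction, and the filters test fewer probe sets. Each measured member had 1 probe set, so taking 1 value per gene left its log2 fold change as it was. A tally of the settings passed is therefore not independent support. The other causes were not tested. No subunit changed direction in any setting run. Centring raised every log2 fold change by 0.033. The replicate numbers are not stated to pair the cultures, so the main fit did not pair them. Deviations of same-numbered arrays from their group means correlated at -0.022. With the replicate block the count over all probe sets was 1391.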

Other observations

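Some of the mRNA decay genes with the widest differences did not pass and lay on dim probe sets; they were picked with their values in view. CPEB3, a regulator of translation that binds cytoplasmic polyadenylation elements, had signals of 5.74 and 5.58 in the shDROSHA arrays, against 5.05 and 5.07 in the shNC arrays, a log2 fold change of 0.60 (SE 0.174, limma adjusted p = 0.0574). DCP1A, the activator of the decapping enzyme DCP2, had 5.60 and 5.87 in the shDROSHA arrays, against 6.55 and 6.16 in the shNC arrays, a log2 fold change of -0.62 (SE 0.179, limma adjusted p = 0.0572). TENT5A, a noncanonical poly(A) polymerase, had 5.70 and 5.34 in the shDROSHA arrays, against 6.14 and 5.91 in the shNC arrays, a log2 fold change of -0.51 (SE 0.181, limma adjusted p = 0.124). In all of them the groups did not overlap, as in 47.8% of all probe sets. Of 5 equal bins of signal, the trended fit called 0.833% of probe sets in the dimmest, which holds CPEB3. It called 1.94% in the next, which holds DCP1A and TENT5A.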
